A study of Mus musculus with 2 samples.

Results

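Hedgehog signaling in the rib repair callus was followed through 9 genes of the pathway: the receptor Ptch1, the coreceptors Gas1 and Boc, the transducer Smo, the cytoplasmic inhibitor Sufu, the transcription factors Gli1, Gli2 and Gli3, and the ligand-binding target Hhip. They were chosen by name and role, with earlier results of these data known, so comparisons with all genes below are descriptions. They are 9 of the 31054 features in both count matrices, where a count is 1 unique molecular identifier (UMI), that is 1 captured transcript molecule. The study removed Smo from Sox9+ lineage cells to ask how Hedgehog activity in periosteal stem and progenitor cells directs the early callus after a large rib resection. Dissociated callus cells were profiled by single-cell RNA sequencing at 4 dpi (days post injury), with 1 library per genotype, each a pool of calluses from 3 animals. The control was Sox9:CreER;R26:tdT;Smo flox/+ and the mutant, Smo cKO, was Sox9:CreER;R26:tdT;Smo flox/flox. Both genotypes therefore carried CreER driven by Sox9, the R26 tdTomato reporter and at least 1 floxed Smo allele, and the regimen described for them was tamoxifen before surgery. The control can itself lose 1 copy of Smo in the cells where Cre acts, and cells outside the Sox9+ lineage keep their Smo alleles in both genotypes. With 1 pool per genotype, genotype cannot be told apart from pool, dissection or library, so no p-value is given, and every interval below is a 95% interval that covers counting error only.

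Hedgehog ligands (SHH, IHH and DHH) bind PTCH1, a membrane protein that otherwise keeps SMO inactive, and GAS1, BOC and CDON help the ligand to bind. Active SMO acts in the primary cilium to free GLI2 and GLI3 from SUFU, so that less GLI repressor and more GLI activator is made. Ptch1, Gli1 and Hhip are themselves transcribed in response to the pathway in many tissues, and PTCH1 and HHIP then limit it by binding the ligand.

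Cells with 200 or more detected genes and under 10% mitochondrial UMIs were kept, with no upper limit on genes, which left 10057 of 10747 barcodes in the control and 9507 of 10512 in the Smo cKO, with a median of 8367 and 9092 UMIs. The libraries shared 613 barcode sequences, 599 of them among kept cells. Cells were put in classes by markers of each cell type (at least 3 markers and a lead over every other class). In connective-like cells, 12 of 12 connective markers, among them Pdgfra and Prrx1, were at least 4-fold higher than in the rest. The same markers defined the class, so their levels are no independent check of it. Connective-like cells numbered 5856 in the control (58.2% of kept cells) and 4765 in the Smo cKO (50.1%), after 1251 cells from 4 clusters were set apart because they were shallow or were led by muscle, macrophage or hemoglobin genes. The hematopoietic-like cells (2075 and 2492), most of them macrophage-like, served as the level that free RNA can give. All levels below are CPM, the UMIs of a gene divided by all UMIs of the same class and library and scaled to 1000000.

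Within the connective-like cells, Smo and Gas1 were lower and Gli2 was higher in the Smo cKO library, each by at least 1.5-fold, while Ptch1, Boc, Sufu, Gli1 and Gli3 lay closer to their control levels. Of the 8 genes with 50 or more UMIs in these cells, 2 were at least 1.5-fold lower, against 4.27% of 13557 genes. Another, Gli2, was at least 1.5-fold higher, against 4.78% of all genes. Smo, 1 of the 2 lower genes, is the gene targeted in the mutant. Its part in this count and in the median is therefore not independent of the design. The median log2 ratio of Smo cKO over control was -0.18 over the 8 genes and 0.01 over all genes tested. The result depended on which cells were kept: with at most 2000 genes per cell, the limit in the study's methods, 1149 control and 538 Smo cKO connective-like cells remained, and the log2 ratios were 0.00 for Smo, -0.28 for Gas1, 0.87 for Ptch1 and 0.43 for Boc. When every cell was given equal weight by averaging per-cell CPM, Smo was at -0.51, under 1.5-fold.

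**Figure D1:**
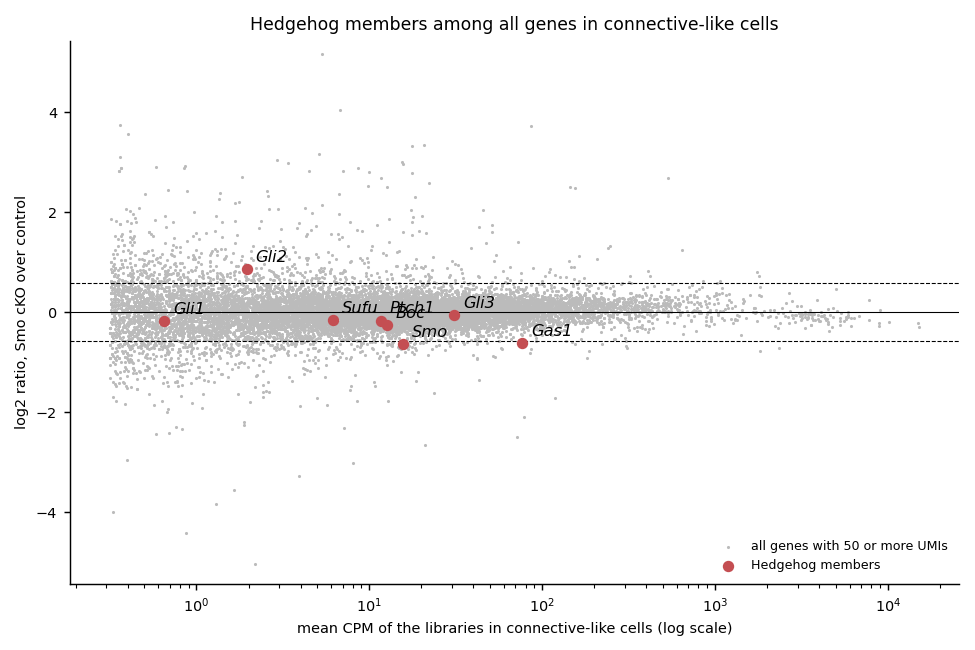
Each grey point is 1 of the genes with 50 or more UMIs in connective-like cells, with its mean CPM of the libraries (log axis) against its log2 ratio of Smo cKO over control. Red points are the Hedgehog genes and dashed lines mark 1.5-fold. Smo (-0.63) and Gas1 (-0.62) lie just past the lower line and Gli2 (0.87) past the upper one, and genes with UMIs in only 1 library are not drawn.

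Smo encodes the membrane protein that passes the signal on and is the gene targeted in the mutant. In connective-like cells it had 1513 UMIs in control cells and 950 in Smo cKO cells, a level of 19.0 CPM (at least 18.1) and 12.3 CPM (11.5 to 13.1). The intervals did not overlap, and the log2 ratio was -0.63 (-0.75 to -0.51), or 1.55-fold lower. Of all genes tested, 3.68% had a lower ratio. The share of cells with at least 1 Smo UMI was 21.9% in the control against 17.2% in the Smo cKO, and after each cell was thinned to 2000 UMIs it was 3.80% and 2.64%, a difference of -1.16 percentage points (-1.83 to -0.480). In macrophage-like cells, which are shallower (medians of 2537 and 3289 UMIs against 11484 and 14387), the thinned shares were 0.588% and 0.216%. Smo transcripts were thus still detected in the mutant connective-like cells, well above the level in hematopoietic-like cells (2.47 and 1.44 CPM). UMIs are counted per gene and do not show whether the floxed part of a transcript was present, so the Smo count is no direct measure of recombination.

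The lower Smo level was not limited to the connective-like cells. In muscle-like cells Smo had 49 UMIs in control cells and 27 in Smo cKO cells, or 18.7 CPM (13.9 to 24.8) and 5.30 CPM (3.49 to 7.71), with a log2 ratio of -1.82 (-2.56 to -1.12). Macrophage-like cells gave 19 and 8 UMIs (4.13 and 1.07 CPM), with a log2 ratio of -1.95 (-3.35 to -0.69). In mural-like cells, the pericytes and smooth muscle of vessels, 9 and 4 UMIs gave 22.8 and 8.13 CPM, and in endothelial-like cells 7 and 2 UMIs gave 9.06 and 2.41 CPM. Both of those intervals included 0 on the log2 scale (-3.64 to 0.36 and -5.21 to 0.48). The part of free RNA from connective-like cells in these classes was not tested. Osteoclast-like cells went the other way on very few counts, with 1 UMI in control cells and 8 in Smo cKO cells (log2 ratio 3.34, 0.44 to 8.81). In the control, the Smo levels of connective-like, muscle-like and mural-like cells could not be ordered within their intervals, whereas in the Smo cKO the connective-like cells stood above the muscle-like ones.

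**Figure D2:**
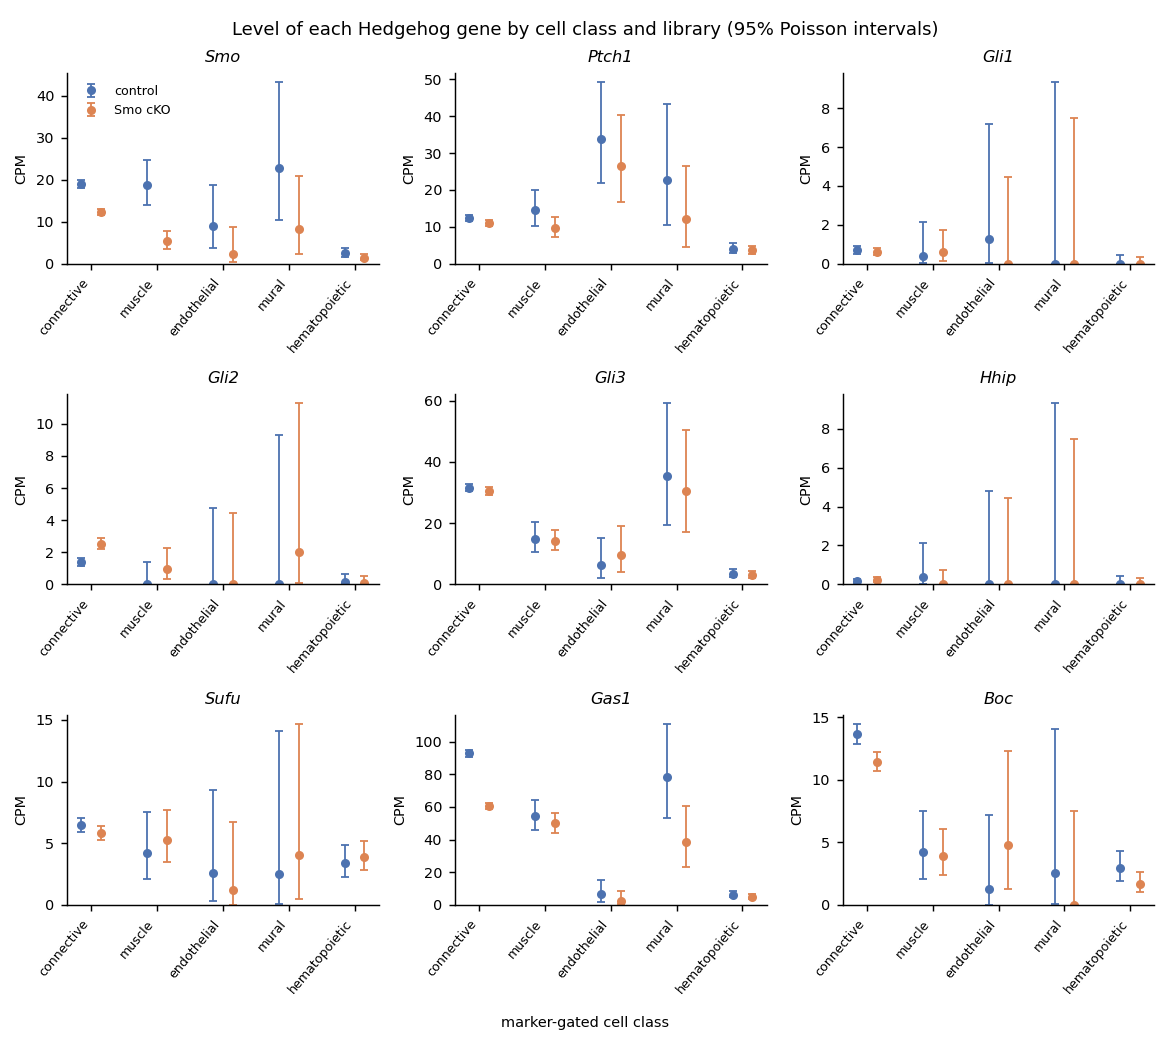
Each panel shows 1 Hedgehog gene, with the level in CPM on the y axis and the marker-gated cell class on the x axis. Points are the control (blue) and Smo cKO (orange) libraries and bars are 95% Poisson intervals. Smo is lower in the Smo cKO in every class drawn, Ptch1 is highest in endothelial-like cells (33.7 and 26.5 CPM), and wide bars mark classes of few cells.

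Ptch1, the ligand receptor and a widely used readout of pathway activity, had 978 UMIs in control connective-like cells and 847 in those of the Smo cKO. Its level was 12.3 CPM (11.5 to 13.1) and 11.0 CPM (10.2 to 11.7), and the log2 ratio of -0.17 (-0.30 to -0.03) was close to 0. The thinned shares, 2.13% and 2.06%, differed by -0.0674 percentage points (-0.608 to 0.499). Ptch1 was highest in endothelial-like cells, at 33.7 CPM in the control (upper bound 49.3) and 26.5 CPM in the Smo cKO (16.6 to 40.2), from 26 and 22 UMIs. Those intervals lay wholly above the connective-like ones in both libraries, while the mural-like level (22.8 and 12.2 CPM, from 9 and 6 UMIs) overlapped both. Muscle-like cells held 14.5 and 9.62 CPM, with a log2 ratio of -0.60 (-1.24 to 0.06). Even hematopoietic-like cells had 4.00 and 3.60 CPM of Ptch1, so a part of every class's level can be free RNA.

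Gas1, a membrane-anchored coreceptor that presents ligand to PTCH1, had 7384 UMIs in control connective-like cells and 4687 in Smo cKO ones. Its level was 92.9 CPM in the control, with a lower bound of 90.8, and 60.6 CPM (58.9 to 62.4) in the mutant, a log2 ratio of -0.62 (-0.67 to -0.56) or 1.53-fold lower. After thinning, 17.9% of control and 12.4% of Smo cKO cells had a Gas1 UMI, a difference of -5.49 percentage points (-6.84 to -4.12). Mural-like cells moved in the same direction, with 31 and 19 UMIs (78.4 and 38.6 CPM, log2 ratio -1.02, -1.93 to -0.15). Muscle-like cells kept 54.3 CPM (45.7 to 64.0) and 49.9 CPM (43.9 to 56.4), with overlapping intervals. The few epithelial- or mesothelial-like cells (14 and 24 cells) had the highest Gas1 level of any class, 155 CPM (96.0 to 237) in the control and 207 CPM (161 to 262) in the Smo cKO. Endothelial-like cells (6.47 and 2.41 CPM) were within the level of hematopoietic-like cells (6.36 and 5.13 CPM), which is read as background.

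Boc encodes an immunoglobulin-family coreceptor. It had 1089 and 884 UMIs in connective-like cells, or 13.7 CPM (12.9 to 14.5) in the control and 11.4 CPM (10.7 to 12.2) in the Smo cKO, with a log2 ratio of -0.26 (-0.39 to -0.13). Muscle-like cells held 4.21 and 3.93 CPM and hematopoietic-like cells 2.94 and 1.71 CPM. Cdon, a related coreceptor, was higher in muscle-like than in connective-like cells (30.6 CPM, 24.3 to 38.1, in the control and 38.3 CPM, 33.1 to 44.0, in the Smo cKO). In connective-like cells it was at 11.9 and 9.34 CPM (log2 ratio -0.35, -0.49 to -0.21). Both coreceptors were found in connective-like cells, and 69.4% of all Cdon UMIs came from there against 11.4% from muscle-like cells.

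Sufu, which holds GLI proteins in the cytoplasm, was at 6.45 CPM (5.91 to 7.04, 513 UMIs) in control connective-like cells and 5.81 CPM (5.28 to 6.37, 449 UMIs) in the Smo cKO. The log2 ratio of -0.15 had an interval from -0.34 to 0.03. Sufu UMIs were also found in other classes, where a part can be free RNA. Hematopoietic-like cells held 3.41 and 3.87 CPM and muscle-like cells 4.21 and 5.30 CPM (11 and 27 UMIs). In the control the connective-like level was 1.83-fold that of all other classed cells together (1.34 to 2.54) and in the Smo cKO 1.42-fold (1.11 to 1.85).

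Gli3, the main source of GLI repressor, had 2516 UMIs in control cells and 2351 in Smo cKO cells. Its connective-like level of 31.6 CPM (30.4 to 32.9) and 30.4 CPM (29.2 to 31.7) gave a log2 ratio of -0.06 (-0.14 to 0.02). A 1.5-fold difference lay outside this interval of counting error, which does not cover the spread between animals or libraries. With at most 2000 genes per cell the ratio was -0.18. Mural-like cells stood at the height of connective-like cells (35.4 and 30.5 CPM). Muscle-like cells were lower (14.9 and 14.1 CPM) and hematopoietic-like cells lowest of these (3.41 and 3.06 CPM). Gli2, the main activator, was sparse, with 110 UMIs in control and 195 in Smo cKO connective-like cells. At 1.38 CPM (1.14 to 1.67) and 2.52 CPM (2.18 to 2.90) the intervals did not overlap, and the log2 ratio was 0.87 (0.52 to 1.22), or 1.82-fold higher in the mutant. The thinned share of cells with a Gli2 UMI was 0.286% and 0.499%, and the interval of that difference, -0.0390 to 0.467 percentage points, included 0. That interval treats the expected share as 1 draw of 2000 UMIs per cell and can be too wide. Outside connective-like cells Gli2 UMIs were few, with 1 UMI in each library's hematopoietic-like cells. Muscle-like cells had 0 and 5 UMIs, where 0 UMIs in the control allow a level of up to 1.15 CPM. Mural-like cells had 0 and 1 UMIs (2.03 CPM in the Smo cKO), and epithelial- or mesothelial-like cells 0 and 2 UMIs. The mural-like and the epithelial- or mesothelial-like cells are few, so their counts do not show whether Gli2 was lower there than in connective-like cells.

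Gli1 is induced by the pathway and carries no repressor form. It was rare, with 55 UMIs in 52 control connective-like cells and 47 UMIs in 47 Smo cKO cells, or 0.692 CPM (0.521 to 0.900) and 0.608 CPM (0.447 to 0.809). The log2 ratio was -0.19, and its interval (-0.78 to 0.40) spans differences of more than 1.5-fold downward, so a change of that size in Gli1 was not detectable at this depth. No Gli1 UMI was found in 2075 control or 2492 Smo cKO hematopoietic-like cells, which allows up to 0.353 and 0.270 CPM, so the connective-like Gli1 signal was not matched in those cells. Muscle-like cells had 1 and 3 UMIs and endothelial-like cells 1 and 0. Hhip, a membrane-tethered inhibitor that sequesters the ligand, was rarer still, with 13 and 18 UMIs in connective-like cells (0.164 and 0.233 CPM, log2 ratio 0.51, -0.60 to 1.66). It fell under the 50 UMIs asked of a gene and was left out of the counts. Over all kept cells, Hhip had 14 UMIs in control cells and 24 in Smo cKO cells, and none in hematopoietic-like cells. The sparse target genes Gli1 and Hhip therefore set no firm direction. Ptch1 had more counts than either, but its ratio depended on which cells were kept. It was -0.17 in the main setting and 0.87, from 42 and 30 UMIs, with at most 2000 genes per cell.

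Most UMIs of every Hedgehog gene came from connective-like cells, from 76.4% for Sufu to 88.2% for Gli2. Since those cells also held most of the UMIs sequenced, levels were compared with all other classed cells. Gli2 and Boc, 2 of the 8 genes tested, were at least 4-fold higher in connective-like cells in both libraries, against 5.46% of 14406 genes. That count depended on how cells were classed and kept. It was 0 with classes of Louvain clusters or with a marker level equal to the library's. It was 1 with a lead of 1.2 between classes, 4 with at most 2000 genes per cell and 6 with any UMI of a marker. The share of all genes moved as well. It was 1.29% with Louvain classes, 4.81% with the lead of 1.2, 8.59% with at most 2000 genes and 9.46% with any marker UMI. With the library's marker level it was also below the 5.46% of the main setting. The range of counts is therefore not read as a property of the Hedgehog genes. Gli2 was 17.2-fold higher in the control, with an interval of 3.03 to 686 because it rests on 1 UMI in the other cells, and 5.01-fold higher (2.59 to 11.1) in the Smo cKO. Boc was 4.37-fold (3.18 to 6.18) and 4.17-fold (3.13 to 5.69) higher. Gli3 lay at the limit, at 4.28-fold in the control and 4.00-fold in the Smo cKO, and Gas1 passed it in the control (4.55-fold, 4.02 to 5.18) but not in the Smo cKO (2.70-fold, 2.44 to 3.00). Ptch1 and Sufu were the least so of the 8, with Ptch1 at 1.42-fold (1.16 to 1.75) and 1.65-fold (1.36 to 2.01).

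The connective-like cells were next divided by Louvain clustering without the Hedgehog genes, which left 7 clusters named by their leading genes. They were led by Ass1 and Gzme (1461 control and 1477 Smo cKO cells), by the complement and acute-phase genes C3 and Saa3 (1977 and 521 cells), by the histone and cell cycle genes Hist1h2ap and Hist1h1b (1021 and 1042), by Cfd, 1500015O10Rik and the tendon and cartilage matrix gene Fmod (623 and 494), by Wnt4 and Sfrp1 (302 and 662), by the bone matrix genes Bglap and Ibsp (472 and 452), and by Serpinb2 and Dlk1 (0 and 117). The clusters differ in size between the libraries, most of all that of C3 and Saa3, and 6 of them had 100 or more cells in both. Names follow leading genes only. The Bglap/Ibsp and Serpinb2/Dlk1 clusters also had 6 of 6 cycling markers over 1.5-fold, and the Bglap/Ibsp cluster 3 of 8 osteoblast markers.

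Smo was lower in the Smo cKO in 6 of 6 clusters, and the interval excluded 0 in 5 of them. The log2 ratio ran from -0.39 (-0.78 to 0.01) in the Wnt4/Sfrp1 cluster, where Smo was also highest (24.6 and 18.8 CPM), to -1.34 (-1.79 to -0.91) in the Bglap/Ibsp cluster, where 153 and 63 UMIs gave 18.1 and 7.14 CPM. The bone matrix cluster therefore had the lowest Smo level of these connective clusters in the mutant library. In the control it did not stand apart (the range over clusters was 17.6 to 24.6 CPM). Gli2 was higher in the Smo cKO in 6 of 6 clusters, with log2 ratios from 0.61 to 1.38 and 3 intervals above 0.

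Gas1 marked some clusters far more than others. In the control it ranged from 31.2 CPM (Bglap/Ibsp) over 180 CPM (Wnt4/Sfrp1) to 219 CPM (212 to 226, C3/Saa3), and in the Smo cKO from 22.2 to 165 CPM (152 to 179) in the same order. It was lower in the mutant in 5 of 6 clusters, by log2 ratios of -0.33 to -0.56, and higher in the Cfd/1500015O10Rik cluster (84.6 and 100 CPM, log2 ratio 0.25, 0.08 to 0.41). The C3/Saa3 cluster, the highest in Gas1, held 1977 control but 521 Smo cKO cells. When the mutant's clusters were weighted as in the control, the Gas1 log2 ratio became -0.31, so that it no longer reached 1.5-fold, whereas that of Smo was -0.64 and that of Gli2 0.93. This weighting was chosen after seeing the data. How far the level within clusters and the mix of clusters each entered the Gas1 difference was not tested.

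Boc had its highest values in the same C3/Saa3 cluster, at 22.5 CPM (20.2 to 24.9) in the control and 31.0 CPM (25.4 to 37.4) in the Smo cKO. The control interval overlapped that of the Cfd/1500015O10Rik cluster (20.9 CPM, 17.8 to 24.3). In the C3/Saa3 cluster the log2 ratio of Boc was 0.46 (0.14 to 0.78). In the other 5 clusters Boc was slightly lower in the mutant, with every interval including 0, and with clusters weighted as in the control its ratio was 0.06. Ptch1 followed another pattern. In the control it was highest in the cycling Hist1h2ap/Hist1h1b cluster (15.8 CPM, 14.2 to 17.5) and lowest in the Wnt4/Sfrp1 (5.64 CPM) and C3/Saa3 (6.51 CPM) clusters, those with the most Gas1. It was lower in the Smo cKO in the Ass1/Gzme cluster (14.3 and 10.7 CPM, log2 ratio -0.43, -0.67 to -0.18) and in the cycling cluster (-0.32, -0.55 to -0.10), and higher in the C3/Saa3 cluster (6.51 and 10.5 CPM, 0.69 with a lower bound of 0.11). The spread of Ptch1 levels over clusters was narrower in the mutant (7.52 to 13.6 CPM) than in the control (5.64 to 15.8 CPM), in single libraries.

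Gli3 varied little over the clusters, from 25.1 to 39.3 CPM in the control and from 25.3 to 35.6 CPM in the Smo cKO. Its highest control value, in the cycling cluster (36.7 to 41.9), overlapped that of the Bglap/Ibsp cluster (34.7 CPM, 30.8 to 38.9). In the cycling cluster Gli3 was lower in the mutant (32.3 CPM, log2 ratio -0.28, -0.42 to -0.14). Sufu ranged from 5.64 to 7.27 CPM in the control, and its ratio excluded 0 only in the Ass1/Gzme cluster (-0.50, -0.85 to -0.15) of the 6 compared. Gli1 rested on 1 to 17 UMIs per cluster and library, with 16 and 10 UMIs in the C3/Saa3 cluster (1.02 and 2.84 CPM, log2 ratio 1.48, 0.18 to 2.71). Of the 18 Hhip UMIs in the Smo cKO, 6 came from 2 cells of the Cfd/1500015O10Rik cluster. The Serpinb2/Dlk1 cluster, present in the Smo cKO only, had 12.9 CPM of Smo, 7.92 CPM of Ptch1, 51.5 CPM of Gas1 and 3.46 CPM of Boc.

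**Figure D3:**
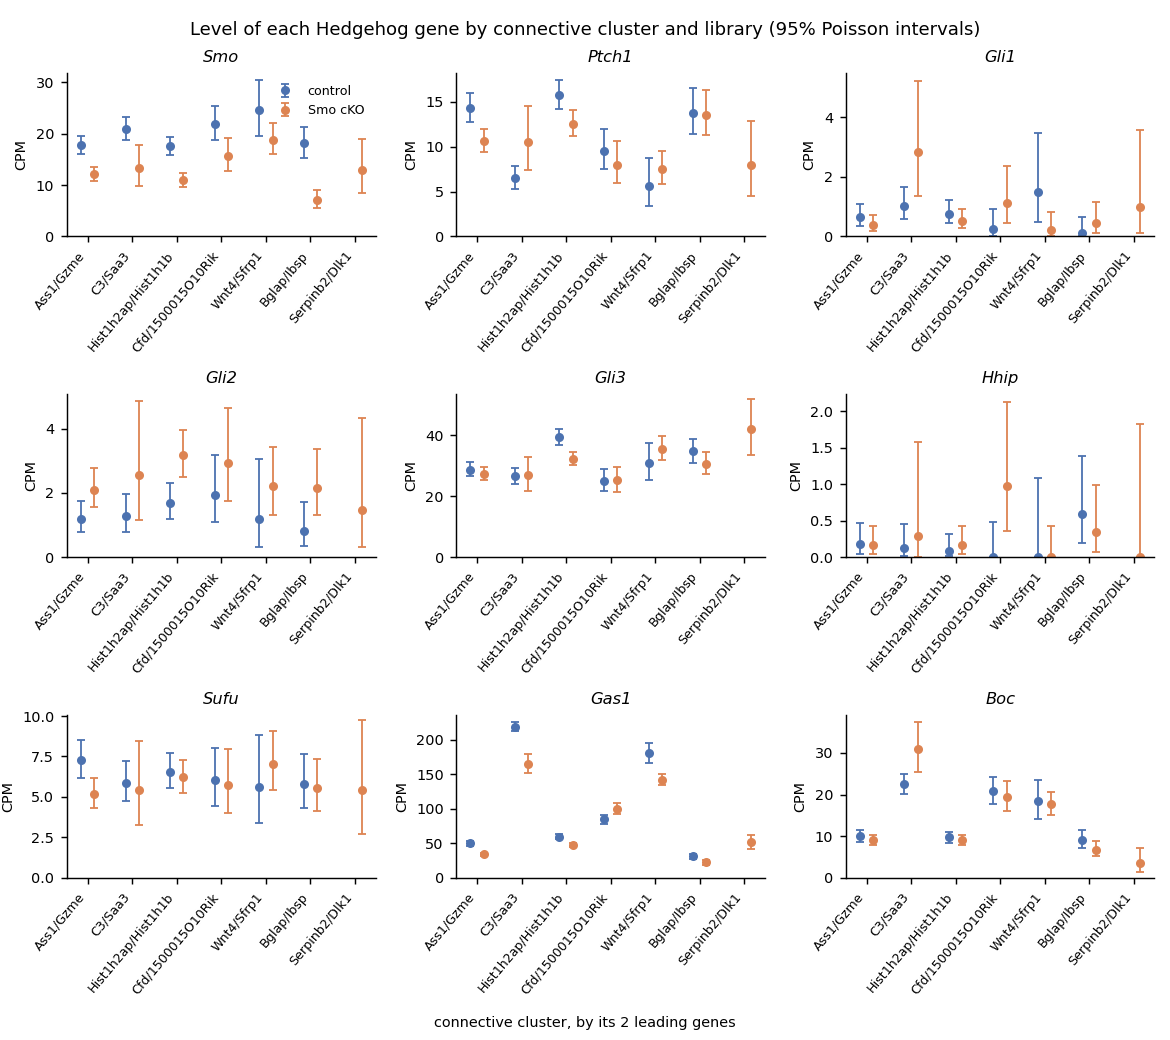
Each panel shows 1 Hedgehog gene, with CPM on the y axis and the connective-like clusters, named by their leading genes, on the x axis. Points are the control (blue) and Smo cKO (orange) libraries and bars are 95% Poisson intervals. Gas1 and Boc have their highest values in the C3/Saa3 cluster (219 and 22.5 CPM in the control), where control Ptch1 is low (6.51 CPM). The control interval of Boc there overlaps that of the Cfd/1500015O10Rik cluster, and the Serpinb2/Dlk1 cluster has no control cells.

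**Figure D4:**
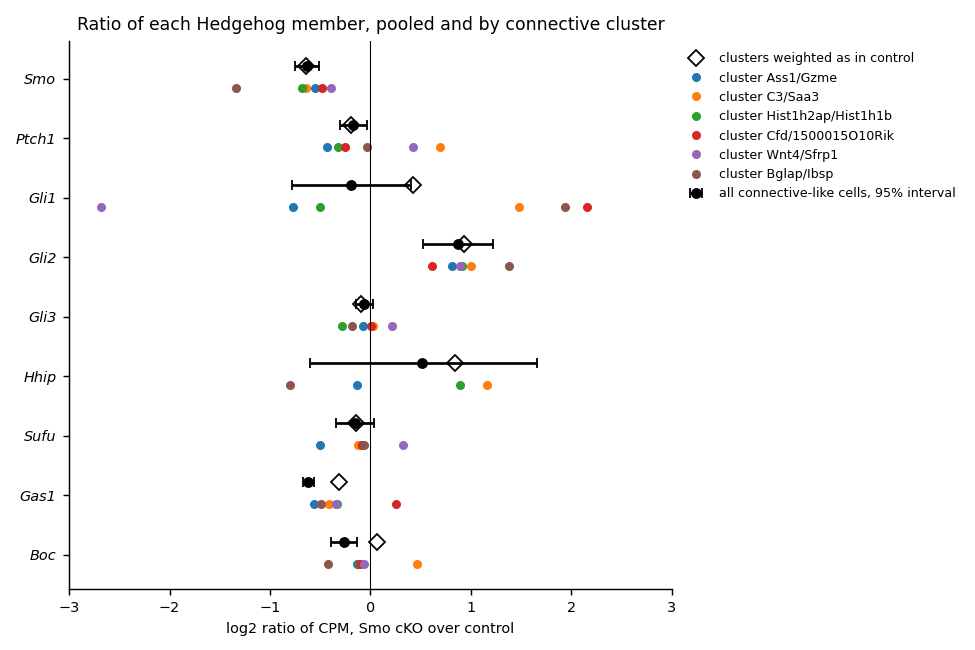
For each Hedgehog gene, the x axis gives the log2 ratio of CPM, Smo cKO over control, with 0 as no difference. Black points with 95% intervals pool all connective-like cells, diamonds weight the clusters as in the control, and colored points are the clusters with 100 or more cells in both libraries, drawn where both have UMIs. Smo lies left of 0 and Gli2 right of 0 in every cluster, while the diamond of Gas1 (-0.31) lies nearer to 0 than its pooled point (-0.62).

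Cells were then split by the genes of the mouse model. The tdTomato reporter, which Cre switches on, was detected in few connective-like cells, 47 of 5856 in the control and 106 of 4765 in the Smo cKO. In these cells Smo was at 21.4 CPM (16 UMIs) and 12.3 CPM (28 UMIs), with a log2 ratio of -0.80 (-1.74 to 0.18), and in all other connective-like cells it was at 19.0 and 12.3 CPM, with a ratio of -0.63 (-0.75 to -0.51). Splitting by Sox9 gave the same picture: the Smo ratio was -0.62 (-0.81 to -0.44) in the 1835 and 1658 cells with a Sox9 UMI and -0.64 (-0.79 to -0.48) in the rest. The lower Smo level was thus found in cells with and without a Sox9 UMI, while the interval in reporter-detected cells included 0. A cell without such a UMI can still belong to the lineage, since detection depends on depth (in the control, cells with a Sox9 UMI had a median of 15739 UMIs and the rest 9984). A cell with a tdTomato UMI may not belong to it, since a part of the reporter UMIs can be free RNA. Macrophage-like cells held 1.09 CPM (0.353 to 2.53) of tdTomato in the control and 0.935 CPM (0.376 to 1.93) in the Smo cKO. Connective-like cells held 0.591 CPM (0.434 to 0.786) and 1.40 CPM (1.15 to 1.69), so the intervals overlapped in both libraries.

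Within the control, Ptch1 was higher in cells with a Sox9 UMI than in the rest (14.2 and 11.0 CPM, log2 ratio 0.37, 0.18 to 0.55), and Gas1 was lower there (65.0 and 112 CPM, -0.78, -0.85 to -0.71). In the Smo cKO the Gas1 difference was -0.53 (-0.62 to -0.44) and that of Ptch1 0.17 (-0.03 to 0.36). Cells high in Cxcl12, the chemokine that attracts CXCR4+ cells, showed the converse. In the control, 419 such cells had 252 CPM of Gas1 against 85.0 CPM in the other connective-like cells (log2 ratio 1.57, 1.47 to 1.67), and 6.71 CPM of Ptch1 against 12.6 CPM (-0.91, -1.54 to -0.33). In the 109 Cxcl12-high cells of the Smo cKO, Gas1 was at 128 CPM against 59.5 CPM (1.10, 0.86 to 1.33) and Ptch1 at 11.3 against 11.0 CPM (0.05, -0.83 to 0.80). High Cxcl12 thus went with high Gas1 in both libraries, and with low Ptch1 in the control, where 25 Ptch1 UMIs stand behind the value. By cluster this did not hold throughout. The control C3/Saa3 cluster was high in Cxcl12 (398 CPM). The control Wnt4/Sfrp1 cluster was low in Cxcl12 (35.9 CPM), yet high in Gas1 (180 CPM) and low in Ptch1 (5.64 CPM).

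At full depth, 42.8% of control connective-like cells and 42% of those of the Smo cKO held UMIs of 2 or more of the 9 genes, and 16.9% and 15.8% held UMIs of 3 or more. In connective-like cells thinned to 2000 UMIs, 30.5% in the control against 24.5% in the Smo cKO had a UMI of at least 1 of the 9 genes. By gene, the thinned shares differed most for Gas1 (17.9% and 12.4%) and for the targeted Smo (3.80% and 2.64%). For every other gene the interval of the difference, which can be too wide for an expected share, ran from negative to positive. Boc was detected more often in cells with a Gas1 UMI than in cells without, at 4.76% (3.51 to 6.19) against 2.77% (2.32 to 3.28) in the control and 5.01% (3.35 to 7.05) against 2.37% (1.93 to 2.89) in the Smo cKO. Ptch1 and Gas1 showed no such pairing: 13.9% of control cells with a Ptch1 UMI also had Gas1 (8.26 to 21.2), against 18.0% of the rest (17.0 to 19.0). Fewer than 9 cells were left with a Gli1 UMI at this depth in either library (8.40 and 6.99 expected), too few to say whether Gli1 and Ptch1 were found in the same cells.

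Across the 13 combinations of connective cluster and library with 100 or more cells, Gas1 and Boc varied together (Pearson r of log2(CPM + 1) 0.80) and Gas1 and Ptch1 oppositely (-0.74). These points share 2 libraries and differ in depth, so the values are a description. The genes most like Gas1 among 11472 were Steap3, C1s1, Lrp6, Susd2 and Il11ra1 (r from 0.97 to 0.98). Those most like Ptch1 were Actr1a, Cep83, Map4, Nle1 and Gtf2ird1 (r from 0.94 to 0.95). For Gli1 they were Zfand2a, Afdn, Arntl, Zfp451 and E430018J23Rik (r from 0.85 to 0.93), and for Hhip Surf2, Prmt9, Fam149b, Gfm2 and Adprm (r from 0.77 to 0.90), but the Gli1 and Hhip levels rest on so few UMIs that these lists say little.

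The rest of the pathway was read from 39 further genes, of which 38 were among the features and 29 had 50 or more UMIs in connective-like cells. Of those 29, 16 were lower and 13 higher in the Smo cKO, and 48.2% of all genes tested were lower. The median log2 ratio was -0.01. Past 1.5-fold were 1 gene lower (against 4.27% of all genes) and 1 gene higher (against 4.78%). Both belong to the secreted SCUBE proteins that release the ligand from cells: Scube2 was at 3.55 and 2.28 CPM (-0.64, -0.92 to -0.36) and Scube1 at 1.17 and 2.23 CPM (0.93, 0.56 to 1.31). Gpc3, a glypican that binds the ligand, was lower (24.7 and 17.3 CPM, -0.51, -0.61 to -0.41), as were the ciliary receptor Gpr161 (-0.44, -0.68 to -0.20) and the arrestin Arrb1 (-0.51, -0.75 to -0.27). The 18 transducers and cilium regulators had a median ratio of -0.04, and none passed 1.5-fold. Of these 18 genes, 11 were lower and 7 higher, among the higher ones Efcab7 (1.26 and 1.67 CPM, 0.41, 0.02 to 0.80), Kif3a (11.2 and 13.2 CPM, 0.23, 0.10 to 0.36) and Tulp3 (13.2 and 15.1 CPM, 0.19, 0.07 to 0.31). Of 8 other genes known to respond to the pathway in mesenchyme, 5 had 50 UMIs, with ratios from 0.09 to 0.58. None of the 5 ratios was below 0, against 48.2% of all genes tested. The intervals of Foxf1, Foxf2 and Bcl2 included 0, so a lower level was not excluded for them. The highest ratio was that of the cyclin gene Ccnd1 (17.7 and 26.5 CPM, 0.58, 0.48 to 0.68), which many other signals also control.

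**Figure D5:**
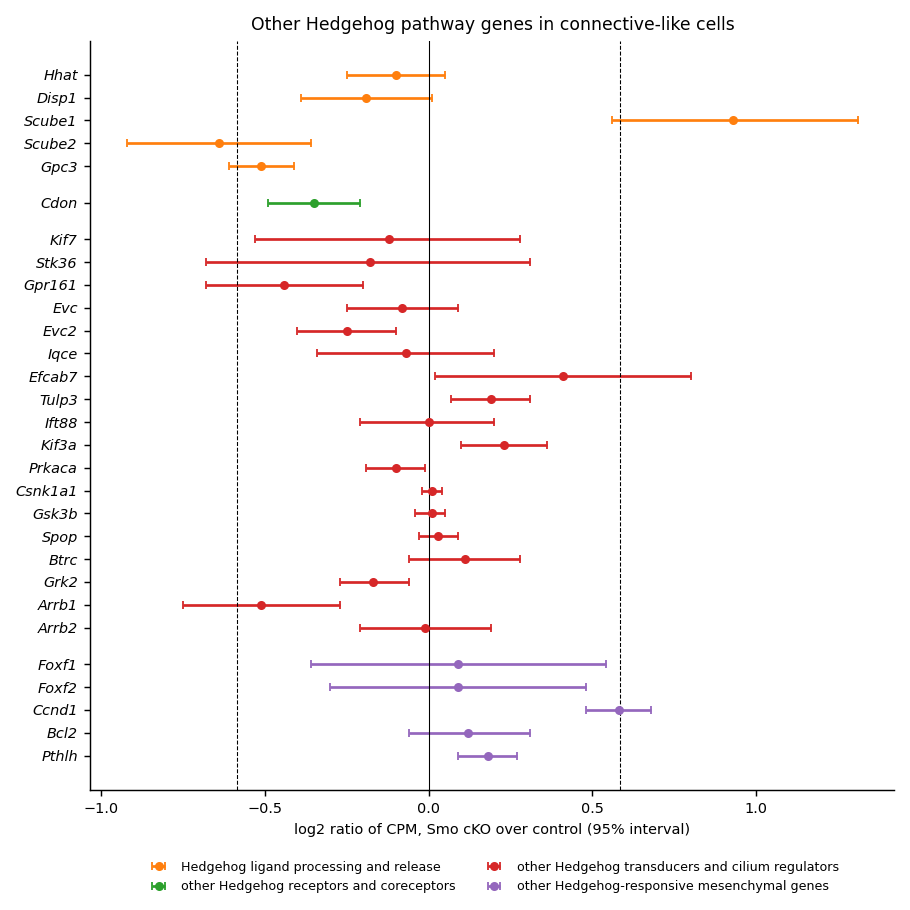
Log2 ratio of CPM, Smo cKO over control (x axis), in connective-like cells for the 29 other Hedgehog pathway genes with 50 or more UMIs, colored by role, with 95% intervals and dashed lines at 1.5-fold. Most lie between the dashed lines, and Scube2 (-0.64) and Scube1 (0.93) lie beyond them.

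The ligand genes were nearly undetected. No Shh UMI was found in 10057 control or 9507 Smo cKO cells. For counting error alone, this allows a level of up to 0.0288 and 0.0271 CPM. The share of cells with a UMI can be up to 0.0298% and 0.0316%. By RNA in situ hybridization, the study reports strong Shh expression in the central resection gap, on days before and after the sampled day. Why the methods differ was not tested, so these bounds are not read as absence of Shh RNA from the callus. Ihh had 1 and 5 UMIs and Dhh 11 and 20. Endothelial-like cells held 3 of the Dhh UMIs in the control against 7 in the Smo cKO (3.88 and 8.44 CPM) from only 62 and 69 cells, whereas hematopoietic-like cells had 0. Endothelial-like cells were thus the class highest both in Ptch1 and in Dhh, the latter on 10 UMIs.

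The promoters of the 3 genes past 1.5-fold are shown because a GLI protein recognizes a short DNA motif, and so that the starts of the genes that differed can be read beside their counts. The sequences are those of RefSeq (GRCm38.p6), from 250 bases before to 50 bases after the start used there, 5′ to 3′ on the gene's strand. Capitals mark the letters CCACCC, the core of the GLI motif, or GGGTGG, the same letters on the other strand. Smo (ENSMUSG00000001761) lies on chromosome 6 and its promoter at chr6:29735247-29735546, plus strand. Gas1 (ENSMUSG00000052957) has its promoter at chr13:60177486-60177785 and Gli2 (ENSMUSG00000048402) at chr1:119053570-119053869, both on the minus strand.
Smo: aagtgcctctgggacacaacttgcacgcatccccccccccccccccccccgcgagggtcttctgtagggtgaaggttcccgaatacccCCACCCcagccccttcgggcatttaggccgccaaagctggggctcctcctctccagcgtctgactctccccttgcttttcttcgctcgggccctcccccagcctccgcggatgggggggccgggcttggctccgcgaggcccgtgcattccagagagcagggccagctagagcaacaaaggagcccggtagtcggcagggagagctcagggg
Gas1: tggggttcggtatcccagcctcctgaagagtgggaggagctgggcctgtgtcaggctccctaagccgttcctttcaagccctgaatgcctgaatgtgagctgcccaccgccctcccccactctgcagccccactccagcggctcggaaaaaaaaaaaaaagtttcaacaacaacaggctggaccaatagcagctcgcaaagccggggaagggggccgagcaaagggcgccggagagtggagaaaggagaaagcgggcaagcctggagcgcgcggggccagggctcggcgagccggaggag
Gli2: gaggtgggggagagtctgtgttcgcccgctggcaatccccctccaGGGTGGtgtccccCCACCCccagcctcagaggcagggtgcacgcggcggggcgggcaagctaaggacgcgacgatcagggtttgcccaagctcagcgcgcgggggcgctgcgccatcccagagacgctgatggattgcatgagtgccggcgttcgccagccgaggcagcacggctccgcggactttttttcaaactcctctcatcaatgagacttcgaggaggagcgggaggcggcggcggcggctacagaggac
The core was found once upstream of Smo, starting at position -162 from the start, at positions -205 and -192 of Gli2, and not in the Gas1 window. RefSeq promoters were in the table for 7 of the 9 genes, all but Gli1 and Boc, and 4 of the 7 (Smo, Gli2, Gli3 and Hhip) held the core on either strand, against 31.5% of 32851 promoters. The whole motif GACCACCCA was in 0 of the 7 and in 0.253% of all promoters, and with 1 mismatch allowed in 0 of the 7 and in 6.74% of all. The 7 windows were rich in G and C (56.3% for Sufu to 76.3% for Ptch1, against a median of 52.7% over all promoters). For Gas1, Gli3 and Ptch1 the gene start given by GENCODE lies outside the window, so the motif counts do not cover it. A match is a description of the letters and not a binding site, and enhancers outside these windows were not looked at.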

How the data were processed

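Raw UMI count matrices deposited for 1 control and 1 Smo cKO library were used, each holding whole-number counts per gene and barcode. Per the study's methods, the authors aligned reads to mm10 with Cell Ranger 3.0.2 and analysed cells with 200 to 2000 genes. That upper limit was not applied, since 58.0% and 59.4% of kept cells exceed it. Totals were 105367110 and 112700220 UMIs.

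The 9 genes, the other gene lists and the cell type markers were chosen with earlier results of these data known. The gate (a marker counts at 0.5 times the library's CPM, at least 3 markers, a lead of 1.5 over the next class) and the 4 clusters set apart were decided after seeing the data. 112 of 10621 connective-like cells had a lead under 1.8, 982 cells were mixed and 1247 had too few markers. UMIs were summed per class and library, with exact Poisson intervals for levels, Clopper-Pearson intervals for ratios and shares, and Newcombe intervals for differences of shares. Shares were also taken as the expected value after thinning cells to 2000 UMIs, leaving out 54 and 57 shallower connective-like cells. The intervals of thinned shares and of their differences treat the rounded expected count of cells as 1 draw. They can therefore be too wide for the expected value. With 1 library per genotype no test was run. Background shares count genes with 50 or more UMIs. Connective cells were clustered without the Hedgehog genes in Seurat 5.3.0 (2000 variable genes, 30 components, 20 neighbors, resolution 0.4). Cxcl12-high cells had at least 2 times the class level. Named genes were the 9 genes, the pathway lists, tdTomato, Sox9, Cxcl12, and the 5 genes most correlated with Ptch1, Gli1, Hhip and Gas1. A listed gene is not reported here. Doublets were not removed: Scrublet (Scanpy 1.11.5) called 2 of 19564 cells. The ratio and its interval were tested on simulated data. Gene positions came from GENCODE for GRCm38. Python 3.11.15, SciPy 1.17.1 and R 4.3.3 were used.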

Additional observations from a re-analysis of the deposited data

Results flagged for a closer look

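Among 97 ratios compared between clusters or classes, 15 belong to genes whose intervals lay on opposite sides of 0 in different groups. The differences between those groups were not tested. Ptch1 was lower in the Smo cKO in the Ass1/Gzme (log2 ratio -0.43) and Hist1h2ap/Hist1h1b (-0.32) clusters and higher in the C3/Saa3 cluster (0.69). Gli1 was at -2.68 in the Wnt4/Sfrp1 cluster, from 5 and 2 UMIs, and at 1.48 in the C3/Saa3 cluster, from 16 and 10 UMIs. Gas1 was lower in the Ass1/Gzme (-0.56), C3/Saa3 (-0.41), Hist1h2ap/Hist1h1b (-0.33), Wnt4/Sfrp1 (-0.34) and Bglap/Ibsp (-0.49) clusters and higher in the Cfd/1500015O10Rik cluster (0.25). Smo was lower in connective-like (-0.63), muscle-like (-1.82) and macrophage-like (-1.95) cells and higher in osteoclast-like cells (3.34), the last from 1 and 8 UMIs.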

How the results depend on the processing

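Of 171 values recomputed under alternatives, 149 stayed within their counting interval or within 1.5 times the count, and the cause of the other changes was not tested. In 3 cases a ratio whose interval excluded 0 changed sign (Ptch1 once, Boc under 2 settings), and Gli1, Gli3 and Sufu, whose intervals included 0, also changed sign under at least 1 setting. Gli2 stayed between 0.70 and 0.93 in its 14 alternatives, but the 0.70 (at most 2000 genes per cell) rested on only 11 and 7 UMIs. With at most 2000 genes per cell, 1149 and 538 connective-like cells remained, the median of all genes was 0.14, and the log2 ratios became 0.00 for Smo, 0.87 for Ptch1, 0.87 for Gli1, -0.18 for Gli3, 0.20 for Sufu, -0.28 for Gas1 and 0.43 for Boc. Hhip then had 1 UMI and gave no ratio. Under this setting Gli1 rested on 7 and 5 UMIs, Sufu on 40 and 18, and Ptch1 on 42 and 30. Of the Hedgehog genes, 0 were at least 1.5-fold lower (4.96% of all genes), and 4 were at least 4-fold higher in connective-like cells (8.59%). With the mean of per-cell CPM, Smo was at -0.51 and Ptch1 at -0.03, and 1 gene (Gas1) stayed 1.5-fold lower. Chosen after seeing the data, weighting clusters as in the control gave 0.42 for Gli1, -0.31 for Gas1 and 0.06 for Boc, and 1 gene (Smo) 1.5-fold lower. A marker level equal to the library's also left 1 (Gas1). The count of genes at least 4-fold higher in connective-like cells was 0 with that marker level or with classes of Louvain clusters. It was 1 with a lead of 1.2 and 6 with any marker UMI. The share of all genes was 1.29% with Louvain classes, 4.81% with the lead of 1.2 and 9.46% with any marker UMI. With that marker level it was also below the 5.46% of the main setting. With the limit between classes lowered to 2-fold, 6 genes passed, against 13.8% of all genes. Leaving out the 8% of cells with the highest doublet scores, or keeping the clusters set apart, left every ratio within its counting interval. The count of genes at least 4-fold higher was 3 (Gli3 added) under either, against 6.02% and 5.47% of all genes. Scrublet's own calls were too few to use as an alternative. No replicate could be left out, with 1 library per genotype. No paired analysis was possible because each genotype has 1 library and no test was run. Depth limits Gli1 and Hhip most.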
